A study of Mus musculus with 10 samples.

Results

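A small set of adult brain cells sorted as microglia carried few transcripts of the genes that mark homeostatic microglia. The cells were selected on 3 genes, *P2ry12*, *Tmem119* and *Selplg*: a cell of either adult library belonged to the set, and is called a member here, when these genes together gave under 0.5% of its UMIs (unique molecular identifiers, each standing for 1 captured RNA molecule). Of 7326 adult cells, 81 were members (1.11%), and the remaining 7245 adult cells serve as the comparison. The whole series holds 19059 cells. Because measured values chose the members, every difference between members and other adult cells is given as a description, in each library, with no test.

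Microglia are the resident macrophages of brain tissue and arise from yolk sac progenitors. In the undisturbed adult brain they express *P2ry12*, a receptor for nucleotides that steers their processes towards injury, *Tmem119*, a membrane protein, and *Selplg*, the ligand of P-selectin, and expression of these genes is lost in culture and in many disease states. Macrophages of the meninges, perivascular spaces and choroid plexus (border macrophages) and monocytes from the blood also carry CD11b and CD45, the antigens of the sort, but lack most of this program. The sort took cells of intermediate CD45, a gate meant to leave out cells of high CD45, as many border macrophages and monocytes are. The comparison asks which genes such cells carry instead, whether those of other cell types, of border macrophages or of activated microglia.

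The series used the 10x Genomics 3' kit v2 on microglia of 5 groups with 2 libraries each: adult brain, mixed glial cultures (*in vitro*), and organotypic slices (slice 1 day, slice 1 week, slice 3 weeks, by time in culture). The adult group, to which all members belong, came from C57BL/6 mice of 10 to 15 weeks that received no treatment, with cells handled on ice except for the Percoll spin and sorted as DAPI negative, CD11B high and CD45 intermediate. No source names the mice of each library or their number, and the 2 adult libraries carry different study labels, so library and label cannot be told apart. About 1000 live cells per sample were aimed for, while the adult files list 3834 and 3585 barcodes. Cells were kept when mitochondrial UMIs were at most 5%, with 400 genes or more and no more than 30000 UMIs, which left 3799 and 3527. Kept adult cells held 12388843 and 6798474 UMIs (replicates 1 and 2), with medians of 3257 and 1858 UMIs per cell, so replicate 2 was the shallower library. The adult libraries shared 20 cell barcodes, and no pair of the 10 libraries shared more than 21. Scrublet marked 0 and 1 cells of the adult libraries as doublets, too few to be used, and no doublets were removed.

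Members made up 56 of 3799 cells in replicate 1 (1.47%, exact binomial 95% interval 1.12 to 1.91) and 25 of 3527 cells in replicate 2 (0.709%, 0.459 to 1.04). Intervals cover counting error only. The median share of the 3 selecting genes was 0.366% and 0.343% of UMIs in members and 1.57% and 1.67% in the other adult cells. In replicate 1 the member nearest the limit had 9 of 1801 UMIs, just under 0.5%, and the nearest cell outside it 0.526% (21 of 3993 UMIs). In replicate 2 these cells had 0.486% (14 of 2882 UMIs) and 0.522% (8 of 1532 UMIs). Of the 81 members, 60 lay between 0.25% and 0.5% and 21 under 0.25%, and 1 member had no UMI of the 3 genes. The exact 95% interval of a cell's own share ended under 0.5% in 18 of the 81 members, so for the others the limit lay within counting error.

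**Figure D1:**
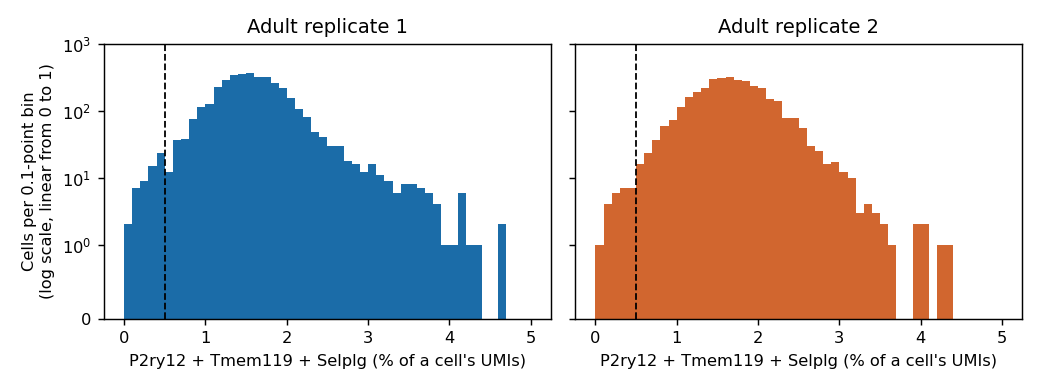
Number of adult cells (vertical axis, log scale that is linear from 0 to 1) by the share of a cell's UMIs from *P2ry12*, *Tmem119* and *Selplg* (horizontal axis, percent, bins of 0.1 points) in adult replicate 1 and replicate 2; the dashed line is the 0.5% limit. The 56 and 25 members left of the line lie below the main peak, and the cells right of the line have medians of 1.57% and 1.67%.

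Median depth was similar in members and other cells, but members spread more widely. Median UMIs were 3542 in members and 3256 in other cells of replicate 1, and 1873 and 1857 in replicate 2. The 95th percentile was 9620 UMIs in members against 4902 in other cells of replicate 1, and 3968 against 3092 in replicate 2. Median genes detected were slightly lower in members, at 1388 against 1515 and 921 against 1008. The median mitochondrial share was 1.42% against 1.3% in replicate 1 and 1.35% against 0.978% in replicate 2. Ribosomal protein genes took a larger share in members, at a median of 8.86% against 6.90% and 8.33% against 5.62%. *Malat1*, a nuclear noncoding RNA whose loss marks damaged cells or debris, was under 1% of UMIs in 7 of 56 members against 14 of 3743 other cells (0.374%) in replicate 1, and in 1 of 25 members against 2 of 3502 in replicate 2. The part of RNA quality in the differences given here was not tested.

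A few members were dominated by transcripts of another cell type, and all of these were in replicate 1. In 2 members hemoglobin genes, the transcripts of red blood cells, gave 90.4% and 72.3% of UMIs (10237 and 16018 UMIs). In 3 members *Ttr*, the transthyretin gene that choroid plexus epithelium expresses strongly, gave 29.1%, 30.3% and 41.0% of UMIs (14126, 2009 and 5324 UMIs). None of the 7245 other adult cells passed 20% of either. The red blood cell list thus took 8.78% of member UMIs against 0.0166% in other cells of replicate 1, and the ependymal and choroid plexus list 2.91% against 0.0127%. These 5 members held 20.03% of all member UMIs of replicate 1, and all 5 were among the 7 *Malat1*-poor members of that library. Low counts of these genes were spread over the whole of replicate 1, at like shares of members and other cells: a hemoglobin UMI was found in 40.4% of its other cells and in 41.2% of its other members, and a *Ttr* UMI in 32.1% and 33.3%, at median depths of 3256 and 3287 UMIs. In replicate 2 no adult cell had a UMI of either. A further member of replicate 1 held 1.80% of its 2560 UMIs in the astrocyte list (*Clu*, *Aldoc*, *Aqp4* and *Gja1* among its genes), with 27.7% *Malat1* and only 2.34% of UMIs in the microglia list. The astrocyte list as a whole took 0.0533% against 0.0153% in replicate 1 and 0.00950% against 0.0149% in replicate 2.

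Other cell types of blood and brain gave few UMIs. The T cell, NK cell and neuron lists had no UMI in the 81 members, and no gene of the fibroblast or mast cell and basophil lists was detected in any adult cell. Neutrophil genes were at or below their share in other cells (0.0151% of UMIs against 0.0213%, and 0.0171% against 0.0178%). Oligodendrocyte genes were level too (0.0118% against 0.0136%, and 0.0152% against 0.0156%). The endothelial list had 26 UMIs in members of replicate 1 (0.0109% against 0.00459% in other cells) and 1 UMI in replicate 2 (0.00190% against 0.00400%). The oligodendrocyte precursor list had 5 UMIs in 2 members of replicate 1 (0.00210% against 7.4e-05%) and none in replicate 2. The dendritic cell list had 4 and 3 UMIs (0.00168% against 0.00153% and 0.00570% against 0.00151%), the B cell list 11 and 6 (0.00462% against 0.00697% and 0.0114% against 0.00771%) and the mural list 1 and 0 (0.00042% against 3.3e-05% in replicate 1).

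Against other adult cells, 15 genes were at least 4-fold higher in members in both libraries, out of 832 genes with at least 10 UMIs in the members of each library (1.8%). Of 778 genes with at least 10 UMIs expected there, 1 was at least 4-fold lower (0.129%). The 3 selecting genes are left out of these counts. Genes that are scarce in other cells could reach the minimum only through the members, as all of the 15 but *Apoe*, *Ccl12* and *Lyz2* did, so their number is no support for a difference. Levels are in CPM, the UMIs of a gene in the summed cells scaled to a common total. At 2-fold, a limit added after the lists were seen, 34 genes were higher (4.09%) and 40 lower (5.14%). Since the members were chosen in this same contrast, these shares are the background for the gene lists and nothing is read from them. Genes of antigen presentation (*H2-Aa*, *H2-Eb1*, *H2-Ab1*, *Cd74*), lipid handling and phagocyte activation (*Apoe*, *Lpl*, *Spp1*, *Lgals3*, *Lilrb4a*, *Capg*), chemokines (*Ccl3*, *Ccl4*, *Ccl12*), the lysozyme gene *Lyz2* and the transcription factor gene *Klf2* formed the 15. The plot of both libraries' ratios shows them away from the body of genes, where the median ratio was 0.859 in replicate 1 and 1.05 in replicate 2 over 984 genes.

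**Figure D2:**
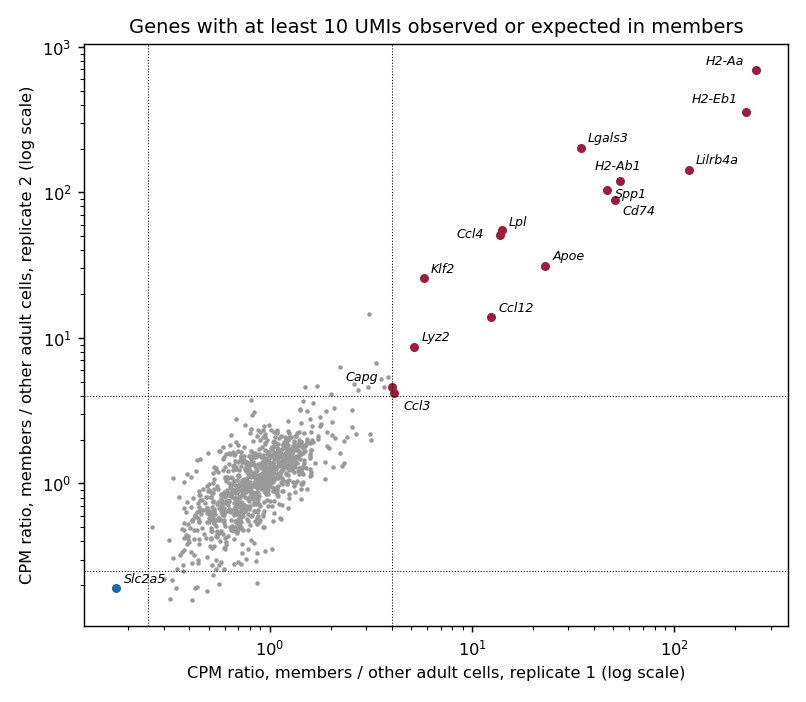
CPM ratio of members to other adult cells in replicate 1 (horizontal axis, log scale) and replicate 2 (vertical axis, log scale), 1 point per gene with at least 10 UMIs observed or expected in the members of each library; genes with a ratio of 0 in a library are left out. Dotted lines mark 4-fold. The 15 genes higher in both libraries are red and labelled, from *Capg* at 4.04 and 4.61 to *H2-Aa* at 255 and 689, and *Slc2a5* is blue.

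Microglial transcripts that the rule did not use were lower in members but still abundant. A list of 16 such genes gave 10.3% of member UMIs against 15.9% in other cells of replicate 1, and 11.1% against 14.5% in replicate 2. The 5 members rich in hemoglobin or *Ttr*, all of replicate 1, had 1.11% to 3.73% of UMIs in this list and lower its sum there. Complement genes and cathepsin S were close to level: *C1qa* stood at 10196 CPM in members and 12211 CPM in other cells of replicate 1, and at 10160 and 10568 CPM in replicate 2. *Cx3cr1*, the fractalkine receptor, was at 1352 against 2515 CPM and 1386 against 2243 CPM. Without the 5 members rich in hemoglobin or *Ttr*, *C1qa* was at 12282 CPM and *Cx3cr1* at 1580 CPM in members of replicate 1.

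Receptor genes of the list differed in how far they lay below other cells. *P2ry13*, a nucleotide receptor next in kind to *P2ry12*, was at 378 CPM in members against 1184 CPM in replicate 1 and at 456 against 1114 CPM in replicate 2. *Gpr34*, a receptor for lysophosphatidylserine, was at 1125 against 2932 CPM and 1424 against 3205 CPM. These were the 2 of 15 genes with enough UMIs that were at least 2-fold lower in both libraries, beside 5.14% of all genes. *Csf1r* (0.561 and 0.579) and *Trem2*, a lipid receptor (0.731 and 0.957), were nearer to other cells. Without the 5 members rich in hemoglobin or *Ttr*, members of replicate 1 had *P2ry13* at 446, *Gpr34* at 1349 and *Trem2* at 3123 CPM. For *Trem2*, other cells of replicate 1 binned by the selecting genes had 3288 to 4052 CPM. The median ratio of the list was 0.561 and 0.724. *Sall1*, a transcription factor gene confined to microglia among brain macrophages, had 16 UMIs in 15 of 56 members of replicate 1 (67.2 against 142 CPM) and 1 UMI in replicate 2 (19.0 against 125 CPM).

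Outside the lists, *Slc2a5*, a fructose transporter that marks microglia, was furthest below other cells by the smaller of a gene's folds in the libraries. It stood at 134 CPM in members and 771 CPM in other cells of replicate 1, and at 133 and 699 CPM in replicate 2, which made it 5.74-fold and 5.26-fold lower. It had a UMI in 37.5% and 24% of members (32 and 7 UMIs) and in 87.0% and 69.0% of other cells, at median depths of 3542, 1873, 3256 and 1857 UMIs. Among the 15 lowest genes, *Adgrg1* (the adhesion receptor GPR56) was 3.01-fold and 3.24-fold lower, *Ptgs1* (cyclooxygenase 1) at 2.88-fold and 3.90-fold, *Rhob* at 2.71-fold and 2.95-fold, *St3gal5* (the GM3 ganglioside synthase) at 2.69-fold and 3.65-fold, *Fscn1* (an actin bundling protein) at 2.67-fold and 3.97-fold and *Ecscr* at 2.45-fold and 2.97-fold. The others of the 15 were *Sipa1*, *0610040J01Rik*, *Gtf2h2*, *Arhgap5*, *Ctc1*, *Commd8*, *Lrba* and *Ptp4a3*, at 2.50-fold to 3.35-fold below other cells in replicate 1 and 2.53-fold to 6.24-fold in replicate 2, where each had only 2 to 7 UMIs in members.

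MHC class II genes set a handful of members apart. *H2-Aa*, the alpha chain of I-A, was at 944 CPM in members against 3.70 CPM in replicate 1 and at 1633 against 2.37 CPM in replicate 2. *Cd74*, the invariant chain that guides class II molecules, was at 3329 against 65.4 CPM and at 6210 against 70.6 CPM. In the same list the peptide loading genes *H2-DMa* (ratios 1.18 and 1.39) and *H2-DMb1* (0.724 and 1.32) were close to level, and the transactivator *Ciita* had 1 UMI.

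These averages came from few cells. Only 12 of the 81 members had an *H2-Aa* UMI, and 7 of them held 90% of its 311 UMIs. A cell with at least 10 UMIs of *H2-Aa*, *H2-Ab1* and *H2-Eb1* together was found 6 times among 56 members and never among 3743 other cells of replicate 1, and 2 times among 25 members and 1 time among 3502 other cells of replicate 2. So 8 of the 9 adult cells rich in class II transcripts were members. The remaining cell had 1.18% of UMIs in the selecting genes and clustered with cycling cells. A low count of *H2-Aa* was present elsewhere, with a UMI in 1.12% and 0.343% of other cells at median depths of 3256 and 1857 UMIs, against 16.1% and 12% of members at 3542 and 1873. With the 8 cells left out, a step added after they were seen, the class II list was 1.70-fold above other cells in place of 11.9-fold (mean of the 2 libraries on the log scale).

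The 8 class II cells shared some genes and differed in others. They held 30 to 214 UMIs of *Cd74*, 12 to 86 of *Lyz2* and 44 to 274 of *Apoe*. All 8 had UMIs of *C1qa* (11 to 48), *Csf1r*, the receptor for colony stimulating factor 1, and *Cx3cr1*, and 7 had a *P2ry12* UMI. The microglia list took 4.11% to 8.48% of their UMIs, with a median of 7.21%, where the median other cell had 15.5% and 14.3%. *Ccr2*, the chemokine receptor of classical monocytes, had 16 UMIs in the members, all in 5 of these 8 cells. Border macrophage genes appeared in several of them, with *Pf4* and *Mrc1* in 5 each and *Ms4a7* in 4, at 1 to 3 UMIs per cell, and *Mgl2*, a lectin gene of some macrophages and dendritic cells, in 4. No UMI of the dendritic cell markers *Flt3* and *Cd209a* or of the monocyte markers *Plac8* and *S100a4* was found in any of the 8.

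Over all members, markers of border macrophages and monocytes had few UMIs. The border macrophage list gave 0.0382% of member UMIs against 0.0184% in replicate 1 and 0.0380% against 0.0148% in replicate 2 (91 and 20 UMIs), and no gene of it had 10 UMIs in the members of both libraries. In other cells most of that share was *Stab1*, a scavenger receptor gene, with 1981 of 2237 UMIs in replicate 1 and 871 UMIs in replicate 2, and it was not higher in members (ratios 0.721 and 0.882). The other genes of the list together, set apart from *Stab1* after the values were seen, gave 0.0264% against 0.00211% and 0.0266% against 0.00193%, or 12.6-fold and 13.8-fold higher, on 63 and 14 member UMIs. *Ms4a7* had 21 and 4 UMIs in 8 and 3 members, *Pf4* 11 and 2 in 4 and 2, and *Mrc1*, the mannose receptor, 9 and 2 in 6 and 2. *Dab2*, an endocytic adaptor, had 7 and 5 UMIs in 5 and 2 members, *Clec12a* 7 and 1 UMIs, *F13a1*, a coagulation factor subunit, 6 and 0 and *Cd163* 1 and 0, while *Lyve1*, *Folr2* and *Cd209f* had none. The monocyte list took 0.217% against 0.0416% and 0.372% against 0.0414%, nearly all of it *Lyz2*, which microglia express as well. *Lyz2* was at 2107 against 408 CPM and 3551 against 408 CPM, with a UMI in 75% and 76% of members and 59.2% and 44.2% of other cells. Its 5 richest members held 53.4% and 83.4% of its UMIs by library, and the median member had 3 and 2. *Ly6c2*, *Chil3*, *Ear2*, *Treml4*, *Fn1*, *S100a4* and *Vcan* had no UMI in members, while *Plac8* had 4 UMIs in 1 member and *Ace* 3 UMIs in 2 members of replicate 1.

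*Apoe*, the lipid carrier gene that rises in disease-associated microglia, was the most abundant of the 15 genes. It stood at 18322 CPM in members against 795 CPM in other cells of replicate 1 and at 19409 against 620 CPM in replicate 2, a ratio of 23.0 and 31.3. Members differed widely in it: 2 members held 21.9% and 20.1% of their UMIs as *Apoe*, 21 members held 90% of the *Apoe* UMIs, and 67 members had any. In replicate 2 an *Apoe* UMI was found in 15 of 25 members (60.0%) and in 27.3% of other cells, and in replicate 1 in 52 of 56 members (92.9%) and 60.4% of other cells. At least 50 *Apoe* UMIs were seen in 15 and 5 members and in 24 (0.641%) and 13 (0.371%) other cells.

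The remaining genes of the disease-associated list were mixed. *Lpl*, lipoprotein lipase, was at 214 against 15.2 CPM and 1215 against 21.9 CPM, and had UMIs in 20 and 12 members. *Spp1*, osteopontin, was at 139 against 2.96 CPM and 551 against 5.34 CPM, but 1 cell of each library held 32 and 25 of its 62 UMIs. These 2 cells had 13.6% and 14.2% of UMIs in the microglia list and 0.378% and 0.224% as *Apoe*. *Cd63*, a late endosome tetraspanin, was at 2552 against 834 CPM and 4292 against 940 CPM. *Ctsb* (ratios 1.78 and 2.86), *Fth1* (1.74 and 2.11), *Cd9* (1.21 and 1.86) and *Tyrobp* (0.980 and 1.28) were nearer to other cells, and *Clec7a* and *Gpnmb*, genes of the later disease-associated state, had no UMI in any adult cell. The whole list took 5.12% against 2.58% and 6.61% against 2.38% of UMIs. *Lgals3*, galectin 3, outside that list, had 40 UMIs in 17 members (88.1 against 2.55 CPM and 361 against 1.78 CPM), and *Lilrb4a*, an inhibitory receptor, 58 UMIs in 18 members (126 against 1.07 CPM and 532 against 3.71 CPM).

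Interferon response genes were higher in members of replicate 1, and in replicate 2 the difference rested on 2 members. The 13-gene list gave 0.366% of member UMIs against 0.0517% in replicate 1 and 0.133% against 0.0327% in replicate 2, where 2 members held 49 of its 70 UMIs and the other 23 members were at 0.0431%. *Ifit3*, an interferon-induced antiviral gene, had 109 UMIs in 12 members of replicate 1 (458 against 32.7 CPM) and 9 UMIs in 2 members of replicate 2 (171 against 12.7 CPM). *Isg15*, a ubiquitin-like modifier, was at 428 against 33.5 CPM and 57.0 against 16.3 CPM. *Cxcl10*, an interferon-induced chemokine, had 158 UMIs in 7 members of replicate 1 and none in replicate 2. With 10 or more UMIs of *Ifit1*, *Ifit3* and *Isg15* together there were 8 members of replicate 1 and none of replicate 2. *Rtp4* had ratios of 3.57 and 5.18 and *Bst2* of 2.40 and 2.10.

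Some inflammatory chemokines had higher summed levels in members, and in each library few cells held most of their UMIs. In replicate 1, 10 of 56 members held 90% of the *Ccl12* UMIs and 4 members 90% of the *Ccl4* UMIs. *Ccl12*, a monocyte attractant, was at 3266 against 262 CPM and 2792 against 201 CPM, yet in replicate 2 only 4 of 25 members (16.0%) had a UMI, fewer than the 23.2% of other cells, and 3 members held 90% of its 147 UMIs. *Ccl4* was at 730 against 52.9 CPM and 2070 against 40.3 CPM, but 1 member held 121 of its 174 UMIs in replicate 1 and 1 member 96 of 109 in replicate 2. *Ccl3* was at 164 against 39.7 CPM and 228 against 54.8 CPM, and 1 member held 11 of its 12 UMIs in replicate 2. *Ccl7* had 54 UMIs in 3 members of replicate 1 only and *Ccl2* 50 and 2 UMIs. The cytokine genes had few UMIs: *Il1b* had 1 UMI, *Tnf* 3 and 1, and *Il1a* was at 50.4 against 96.6 CPM and 19.0 against 81.7 CPM. The whole list took 0.549% against 0.122% and 0.661% against 0.120% of UMIs.

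Immediate early genes, which rise during dissociation, were not higher as a group, at 0.128% against 0.174% and 0.165% against 0.183% of UMIs. *Jun* was at 185 against 415 CPM and 133 against 322 CPM, and *Fos* had 8 and 0 UMIs. *Klf2*, counted in that list and among the 15 highest genes, was at 118 against 20.3 CPM and 209 against 8.15 CPM, but all 11 UMIs of replicate 2 were in 1 cell. Heat shock genes took 0.194% against 0.135% and 0.148% against 0.0966%, and proliferation genes 0.00420% against 0.00853% and 0.00760% against 0.00927%. Ribosomal protein genes took 8.82% against 7.13% and 8.98% against 5.78%. No single gene of the 82 with enough UMIs was 2-fold higher in both libraries, beside 4.09% of all genes. Nuclear noncoding RNAs took 3.32% against 4.17% and 4.26% against 5.30%, and mitochondrial genes 1.60% against 1.35% and 1.37% against 1.03%.

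**Figure D3:**
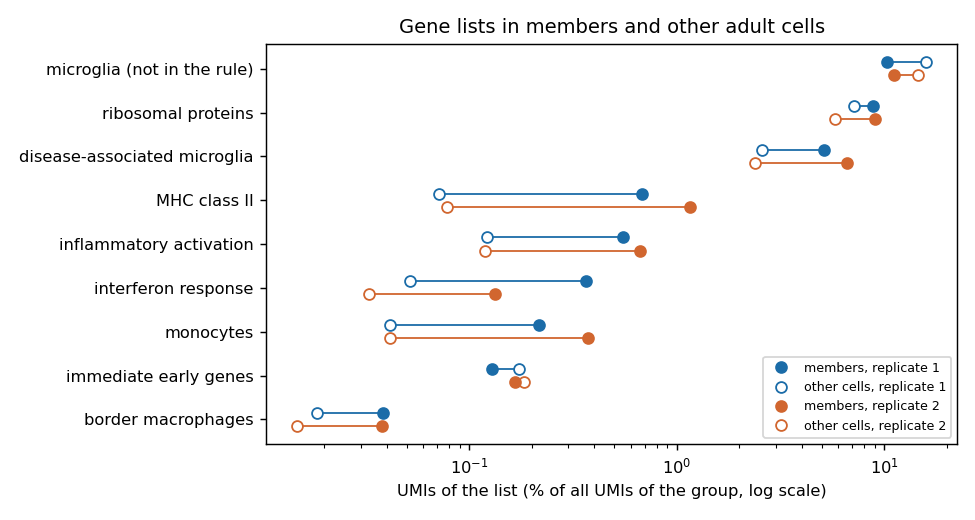
Share of all UMIs (horizontal axis, percent, log scale) from 9 gene lists (vertical axis) in members (filled points) and other adult cells (open points) of replicate 1 (blue) and replicate 2 (orange). The microglia list is lower in members (10.3% and 11.1% against 15.9% and 14.5%), MHC class II is furthest apart, and immediate early genes are close together.

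Counted cell by cell, most members were outliers for at least 1 of 4 gene lists: disease-associated, inflammatory, MHC class II and interferon. For each list, a cell was compared with the 99th percentile of the other adult cells of its library, a description added after the lists were seen, so about 1% of other cells lie above it. The disease-associated list had 42 members above it (27 and 15 by library), inflammatory activation 21 (15 and 6), MHC class II 15 (10 and 5) and interferon response 12 (10 and 2). At least 1 of these 4 lists was exceeded by 55 members (67.9%; 66.1% and 72.0% by library) and by 255 other cells (3.52%). Exactly 1 list was exceeded by 27 members, 2 lists by 22, 3 lists by 5 and all 4 by 1 member. The other 26 members (32.1%) exceeded none. With every cell thinned to 1000 UMIs, 53 of the 79 members that were deep enough exceeded at least 1 list (67.1%) against 2.72% of other cells.

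The monocyte list was exceeded by 18 members and the border macrophage list by 10, and 9 members exceeded both. Of the 10, 6 also exceeded the MHC class II list and 8 the disease-associated list, but none the interferon or the inflammatory list. Of the 18, 13 exceeded the disease-associated list and 9 the MHC class II list. Counts of cells above these lists therefore cannot tell activation from cell type. Ribosomal proteins were exceeded by 24 members. No member exceeded the microglia list.

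Split at 0.25% of UMIs in the selecting genes, the counts of members that exceeded a list were these. Among the 21 members under 0.25%, 7 exceeded the class II list (33.3%), 14 the disease-associated list (66.7%), 7 the inflammatory list (33.3%) and 2 the interferon list (9.52%). Among the 60 members between 0.25% and 0.5%, 8 (13.3%), 28 (46.7%), 14 (23.3%) and 10 (16.7%) did. With the limit moved to 0.25%, the class II list was 26.3-fold above other cells in place of 11.9-fold, while the interferon list was 2.90-fold in place of 5.37-fold and the inflammatory list 3.00-fold in place of 4.98-fold. The 14 members under 0.25% in replicate 1 included cells rich in hemoglobin (10237 UMIs) or *Ttr* (14126 and 2009 UMIs). Such cells lower the summed share of every other list, so no trend is read from these folds.

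Levels were also taken across all adult cells, binned by the share of the selecting genes and without the 5 cells rich in hemoglobin or *Ttr*. *Apoe* went from 516 and 266 CPM in cells at 2% and over to 6157 and 3173 CPM at 0.5 to 0.75% (63 and 54 cells) and 22485 and 19409 CPM in members. It did not rise at every step, with 485 CPM at 1.5 to 2% in replicate 1 and 3497 CPM at 0.75 to 1% in replicate 2. *P2ry13* went the other way and fell at every step, from 1637 and 1345 CPM to 601 and 749.9 CPM and then 446 and 456 CPM. *H2-Aa* had 3.84 and 1.35 CPM at the top and 0 and 19.2 CPM at 0.5 to 0.75%, but 1181 and 1633 CPM in members. *Ccl12* differed between the libraries just above the limit, with 3737 CPM at 0.5 to 0.75% in replicate 1 and 240.4 CPM in replicate 2. *C1qa* stayed between 10057 and 14368 CPM in every bin of both libraries.

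**Figure D4:**
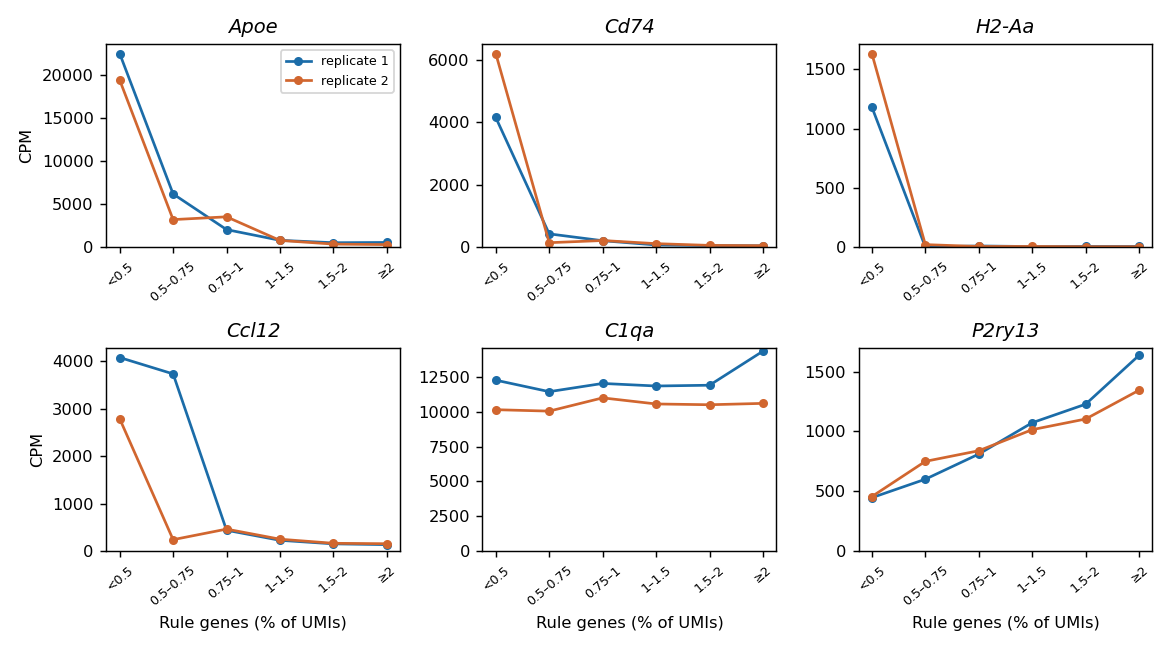
CPM (vertical axes, linear from 0) of 6 genes in adult cells binned by the share of UMIs from *P2ry12*, *Tmem119* and *Selplg* (horizontal axes, percent), in replicate 1 (blue) and replicate 2 (orange), without the 5 cells rich in hemoglobin or *Ttr*. *H2-Aa* is high in the members' bin (under 0.5) alone, *Apoe* and *Cd74* are raised above the limit too, *P2ry13* is lowest in members and *C1qa* differs little between bins.

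Clustered among themselves, without the 3 selecting genes, the members fell into 4 clusters of 25, 23, 23 and 10 cells. The clusters were not stable: other settings gave 3 to 9 clusters, and the adjusted Rand index with the 4 was 0.339 to 0.645 (1 is identity). They are therefore described by their leading genes and given no cell type name, and since clusters are built from the genes that describe them, nothing was tested.

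Cluster 1 (17 and 8 cells by library) led with *Pf4*, *Ms4a7*, *H2-Aa*, *H2-Eb1*, *Mrc1*, *Ccr2*, *H2-Ab1*, *Dab2*, *Cd74* and *Tsc22d3*. It held 7 of the 8 class II cells, all 10 members that exceeded the border macrophage list and 13 of the 18 that exceeded the monocyte list. *Apoe* was highest here, at 49041 CPM, as was *Lyz2*, at 6815 CPM, and the median ribosomal protein share was 12.3%. *C1qa* was at 10151 CPM.

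Cluster 2 (12 and 11 cells) led with *Enpp2*, *Ttr*, *Chchd10*, *Clu*, *Cryab*, *Rdh5*, *1500015O10Rik*, *Mt3*, *Igfbp2* and *Calml4*, which were found in 3 to 6 of its 23 cells. It held 4 of the 5 members rich in hemoglobin or *Ttr*. The median microglia list share was 12.3%, the median share of the selecting genes 0.292% and the median ribosomal protein share 6.33%.

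Cluster 3 (18 and 5 cells) led with *Ccl4*, *Atf3*, *Glipr1*, *Ccl3*, *Csf1*, *Sdc4*, *Plaur*, *Slc35f6*, *Cul1* and *Ank*. *Csf1* encodes the growth factor of macrophages and was found in 10 of the 23 cells, *Plaur*, the urokinase receptor, in 11 and *Atf3*, a stress transcription factor, in 8. *Apoe* was lowest here (2095 CPM), and 13 cells exceeded the disease-associated list.

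Cluster 4 (9 cells of replicate 1 and 1 of replicate 2) led with *Cxcl10*, *Ccl7*, *Rsad2*, *Ccl2*, *Mnda*, *Ifit3*, *Ifit3b*, *Ifit1*, *Isg15* and *Iigp1*. Of its 10 cells, 9 exceeded the interferon list and all 10 the inflammatory list, with *Ccl12* at 17142 CPM. One class II cell was in this cluster, with 64 UMIs of *Ccl12* among its 2687. The cells had a median of 0.406% in the selecting genes, nearer the limit than those of the other clusters.

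**Figure D5:**
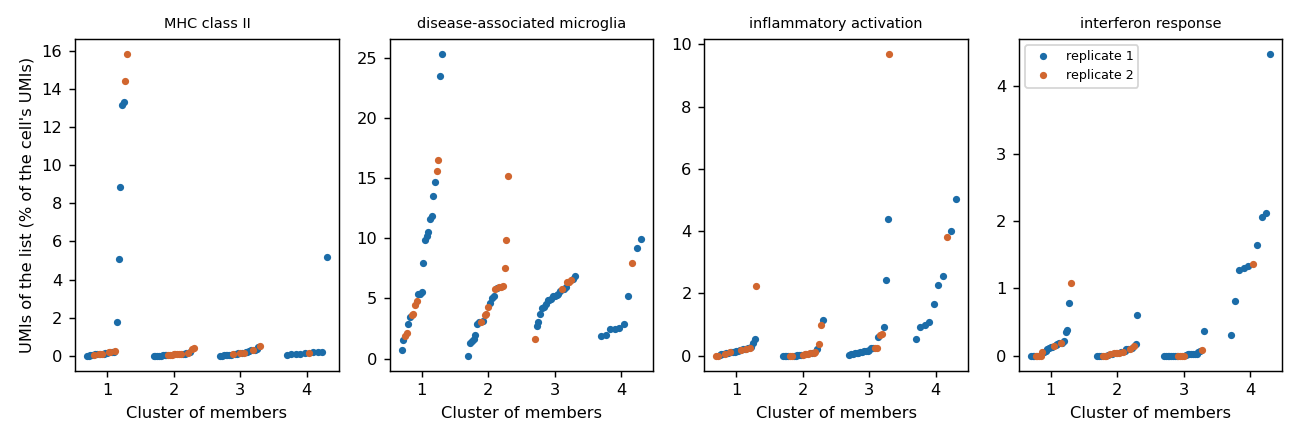
Share of a member's UMIs (vertical axes, percent, linear) from 4 gene lists for each of the 81 members, by cluster of members (horizontal axes) and library (replicate 1 blue, replicate 2 orange), with cells of a cluster drawn in order of their value. MHC class II above 4% is seen in 6 cells of cluster 1 and 1 cell of cluster 4, and interferon response genes are highest in cluster 4, where 9 of 10 cells are from replicate 1.

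Placed among all adult cells, members gathered in small clusters. Of 10 clusters of the 7326 cells, the 3 largest (1964, 1922 and 1738 cells) held 3, 1 and 1 members. A cluster of 185 cells that led with *Mmp12*, *Ms4a7*, *Mgl2*, *H2-Aa* and *Lilrb4a* held 46 members (56.8% of members, 1.92% of other cells), 28 and 18 by library. One of 178 cells that led with the interferon genes *Gm4955*, *Iigp1*, *Oasl1* and *Oas1g* and with *Il12b* held 15 members, 13 and 2 by library, among them all 10 cells of cluster 4. One of 47 cells that led with hemoglobin genes and *Enpp2* held 6 members, all of replicate 1. In these 3 clusters members were 24.9%, 8.43% and 12.8% of the cells. The leading genes were not shared by all cells of a cluster: *H2-Aa* had a UMI in 15 of the 185 cells and *Enpp2* in 3 of the 47. A cluster of 26 cells that led with *Rrm2*, *Top2a* and *Plk1* had no member.

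In the cultured groups nearly all cells met the same limit: 100% in both *in vitro* and both slice 1 week libraries, 96.9% and 100% at slice 1 day and 85.4% and 88.6% at slice 3 weeks. Side by side, over all cells of each library, the adult members had more of the microglia list (10.3% and 11.1% of UMIs) than slice 3 weeks (7.31% and 6.03%), slice 1 week (3.78% and 4.57%), *in vitro* (3.11% and 2.79%) or slice 1 day (2.31% and 1.85%). *Apoe* in members (18322 and 19409 CPM) was nearest to slice 3 weeks (26729 and 19723 CPM), below slice 1 week (61657 and 64797 CPM) and *in vitro* (67835 and 58709 CPM) and above slice 1 day (7852 and 6463 CPM). *Spp1* was at 139 and 551 CPM in members and between 1204 and 11740 CPM in the 8 cultured libraries. *H2-Aa* went the other way, at 944 and 1633 CPM in members against 0 to 24.9 CPM in cultured libraries. *Slc2a5* was at 134 and 133 CPM in members and at 0.126 to 53.2 CPM in cultured libraries. The cultured groups were prepared from newborn pups and the members came from adult mice, so age, culture and depth cannot be told apart here, and no test was made.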

How the data were processed

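Adult brain cells sorted as microglia were measured in 2 libraries of the 10x Genomics 3' kit v2, which serve as the replicates. The authors deposited 1 table of UMI counts per library, with no further normalization, made with Cell Ranger 1.3.0 and mm10 per the submitters' processing notes. The members and gene lists were chosen with earlier results of these data known. Cells were filtered on mitochondrial share, genes and UMIs, and UMIs of members and of other cells were summed per library. Ratios of CPM are descriptions, with a gene counted as higher or lower at 4-fold in both libraries and a minimum of 10 UMIs observed or expected in members. A fold of 2 and the 99th percentile per cell were added after the data were seen. Genes named are the 15 highest and 15 lowest, the members of the fixed lists, and the 10 leading genes of each cluster of members. The first genes of the clusters of all adult cells, and *Mgl2*, were chosen after their values were seen. Symbols matched the reference for 96.5% of 15119 adult genes, and no coordinates were used. Some genes of the lists are not reported here. Louvain clusters came from igraph 0.11.9 on values centred by library (2000 variable genes by Scanpy 1.11.5, 20 components; resolution 1 and 15 neighbours for members, 0.8 and 20 for all adult cells). Intervals are exact binomial. Scrublet marked nearly no cell, so no doublets were removed. edgeR 4.0.16 gave TMM factors only. The calling step was tested on simulated data. The simulation drew sums per library without differences between cells, and changed only genes with ample expected UMIs. It does not cover genes that are scarce in other cells or held by few members. Other tools were Python 3.11.15, pandas 2.3.3 and scipy 1.17.1.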

Additional observations from a re-analysis of the deposited data

How the results depend on the processing

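With the limit at 0.25% the members were 0.287% of adult cells (21 cells), and at 1% they were 7.71% (565 cells). By library the share was 0.709% to 1.47%. Log2 ratios of members to other cells, averaged over the libraries, were -0.51 for the microglia list (-0.91 at 0.25%, -0.15 at 1%), 3.58 for MHC class II (4.72 and 1.53), 1.23 for the disease-associated list (0.58 at 1%), 2.42 for interferon response (1.53 and 1.64) and 2.32 for inflammatory activation (1.58 and 1.37). These sums include the members rich in hemoglobin or *Ttr*, which lower the other lists in replicate 1, also at 0.25%. Without the 8 members rich in class II transcripts, a step chosen after seeing the data, class II was 0.76. The number of genes at least 4-fold higher was 15, and it was 7 at 0.25%, 26 at 1% (11 of them shared with the 15), 32 with a minimum of 5 UMIs and 27 to 117 with 1 library alone, where a gene need pass in that library only. The number at least 4-fold lower was 1, and it was 3, 0, 2 and 12 to 40 under the same settings. A 2-fold limit, chosen after seeing the data, gave 34 and 40. Without the 5 members rich in hemoglobin or *Ttr*, also chosen after seeing the data, 18 genes were higher, among them all 15. Resolution 2 gave 9 clusters in place of 4. TMM scaling shifted all log2 ratios by 0.18 in replicate 1 and -0.23 in replicate 2, turned none of 12 lists with at least 10 UMIs in each library, and kept 13 of the 15 genes among its own 15. Of 240 recomputed ratios of 30 named genes, 77 moved by more than the spread between libraries and 0 reversed, and of 72 ratios of 9 lists 18 moved and 0 reversed. Ratios from 1 library alone are among them and lie within that spread by construction. The named genes were the 15 highest and 15 lowest of this contrast, so a reversal was unlikely from the start and its absence shows no stability. Where ratios moved with the limit, the members themselves differ by construction. The alternative without doublets was not run, since the caller marked 0 members. No paired analysis was possible because no result comes from a test.

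With 81 members and 2 libraries, rare genes cannot be read: 832 of 15119 genes had 10 UMIs in the members of both libraries. Replicate 2 held 25 members and 52657 member UMIs against 238240 in replicate 1, so its values rest on fewer molecules. A cell's share of the selecting genes carries counting error, and with every cell thinned to 1000 UMIs, 79 cells fell under the limit, 53 of them members.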

Other observations

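Cells like some of the members were also found above the limit. At least 50 *Apoe* UMIs were counted in 24 and 13 other cells, whose median share of the selecting genes was 0.879% and 0.876%. At least 10 *Ccl12* UMIs were counted in 26 and 16 other cells, with medians of 0.957% and 1.17%. At least 10 UMIs of *Ifit1*, *Ifit3* and *Isg15* together were counted in 16 and 2 other cells, with medians of 0.803% and 1.64%. These values are given without a test.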
